A study of Homo sapiens with 12 samples.

Results

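H9 is an established human embryonic stem cell line, here taken through neural differentiation. The step described is that of cells labelled SOX21-/- at day 8 against cells labelled SOX21-/- at day 4, with 2 libraries a day from the lines S13 and S23. These 4 of the 12 libraries were taken by genotype and day alone, and no expression value entered the choice. Wild-type H9 cells at day 8 and at day 4, with 2 libraries a day named WT1 and WT2, gave the same step in the parent line. The other 4 libraries were undifferentiated cells of day 0, 2 of each genotype, and entered the filter on low values and the estimate of spread. Cells of day 8 and day 4 were labelled as neural progenitors made from ES cells in both genotypes, and the labels name no agent, medium or further allele for either. They do not say how SOX21 was altered, nor whether S13 and S23 were separate clones or cultures. The p-values therefore measure only the spread between these libraries, which may be technical.

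As background, pluripotent cells that enter the neural lineage shut down the stem cell network and become neuroepithelial progenitors, which keep SOX2, PAX6 and nestin. Progenitors hold back differentiation through NOTCH: DLL and JAG ligands on a cell activate NOTCH receptors on its neighbour, the cleaved receptor joins the DNA-binding protein RBPJ, and HES repressors then block the proneural genes that make neurons. WNT ligands leave the cell with the carrier WLS and bind frizzled receptors, and they favour caudal and dorsal fates in the early forebrain. SOX21 is a repressor of the SOX family that is expressed in neural progenitors.

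Expression was given as TPM, a length-corrected share of all transcripts that sums to the same total in every library, so the depth behind the values is unknown. Of 58219 genes in the table, the 24248 with 1 TPM or more in 2 or more libraries entered the tests, on log2(TPM + 1), a scale that understates the change of low genes. Between 17586 and 19834 genes reached 1 TPM in each library of day 8 and day 4. Replicate libraries of 1 group correlated at r = 0.955 to 0.962 across genes, which are not independent replicates. The day 0 libraries stood apart, with 11.1 to 12.4% of their TPM in processed pseudogenes, against 0.454 to 0.677% in the libraries of day 8 and day 4. The targeted gene did not check the labels. SOX21 (chromosome 13, GRCh38, 94709622 to 94712399) was at 253 and 69.9 TPM at day 8 and at 162 and 143 TPM at day 4 in the libraries labelled SOX21-/- (log2 fold change -0.19 ± 0.47 SE, adjusted p = 0.836). Wild-type levels were 129 and 100.04 TPM at day 8 and 156 and 166 TPM at day 4. The day 8 libraries labelled SOX21-/- lay on both sides of the other 3 groups. The step therefore passed in opposite directions without a day 8 library, at -1.11 without S13 (adjusted p = 0.00706) and at 0.73 without S23 (adjusted p = 0.0292). A TPM summed over a gene does not show whether its reading frame is intact.

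Between day 4 and day 8 the cells labelled SOX21-/- had higher levels of NOTCH ligands, HES5 and HES4, 5 of 11 tested WNT ligand and secretion genes, 24 of 34 matrix genes and 14 of 27 mitosis genes. Levels were lower for 19 of 33 DNA replication genes and 8 of 21 stem cell genes, which include POU5F1. Of 18 rostral patterning genes 5 were lower and 6 higher. In all, 6336 genes (26.1% of those tested) passed limma's adjusted p of 0.05, 4603 higher (19%) and 1733 lower (7.15%) at day 8. Of these, 2386 were at least 2-fold higher and 491 at least 2-fold lower, and 84 and 35 reached 8-fold. All 4603 higher and all 1733 lower calls had days that did not overlap, so such separation adds nothing to a call. Of all tested genes, 40.9% did not overlap with day 8 higher and 17.6% with day 8 lower. Protein-coding genes, 14450 of those tested, made up 3295 of the higher and 1534 of the lower calls. Long intergenic RNAs, 1977 of those tested, made up 371 and 49. The median log2 fold change of all tested genes was 0.20, against 0.028 in the wild-type step. With median-of-ratios scaling the calls split into 2390 higher and 2922 lower, and with quantile normalization into 2355 and 2796. List medians below are therefore to be read against 0.20 and list counts against 19% higher and 7.15% lower. List counts given under either scaling are to be read against that scaling's own split, in which more of all tested genes fell than rose. Since these are bulk samples, fewer cells of a type and less RNA per cell cannot be told apart.

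The NOTCH cascade had its steepest gains at HES5 and HES4. HES5, a repressor that keeps neural progenitors undifferentiated, was at 112 and 128 TPM at day 8 and at 0.838 and 1.51 TPM at day 4 (log2 fold change 5.81 ± 0.19, adjusted p = 5.61e-06). HES4, a relative of HES1, was at 594 and 646 TPM at day 8 and at 18.5 and 20.05 TPM at day 4 (4.94 ± 0.20, adjusted p = 1.45e-05). Both genes were near the floor or low in both day 4 libraries and high in both day 8 libraries. HES3, a HES gene of the early neuroepithelium, was lower instead, at 44.4 and 73.6 TPM at day 8 and 95.0 and 151 TPM at day 4 (-1.05 ± 0.28, adjusted p = 0.0274). HES3 lost its call without S23 at day 4 (adjusted p = 0.142) or S13 at day 8 (adjusted p = 0.144), and its adjusted p ranged from 0.0129 to 0.217 over all alternatives. HES1, the HES gene that answers NOTCH in most tissues, was at 15.9 and 12.5 TPM at day 8 and at 19.4 and 37.5 TPM at day 4 and did not pass (-0.89 ± 0.42, adjusted p = 0.161). HES1, HES3, HES4 and HES5 thus did not share a direction, and HES6 was between 17.4 and 27.7 TPM in all 4 libraries.

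The upstream sequence of these 4 HES genes is shown because NOTCH reaches its targets through RBPJ. The RBPJ core TGGGAA, or TTCCCA where it lies on the opposite strand, is in capitals. Each line runs 5′ to 3′ on the gene's own strand over the 100 bases from 130 to 31 before the annotated start, from RefSeq on GRCh38.p14.
HES5, chr1:2530294-2530393, minus strand: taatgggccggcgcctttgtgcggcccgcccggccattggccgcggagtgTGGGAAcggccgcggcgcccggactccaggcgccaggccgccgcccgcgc
HES4, chr1:1000128-1000227, minus strand: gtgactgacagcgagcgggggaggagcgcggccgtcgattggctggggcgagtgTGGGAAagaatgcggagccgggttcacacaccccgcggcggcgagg
HES3, chr1:6244049-6244148, plus strand: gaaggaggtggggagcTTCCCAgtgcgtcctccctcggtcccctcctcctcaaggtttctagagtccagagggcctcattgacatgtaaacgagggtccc
HES1, chr3:194136018-194136117, plus strand: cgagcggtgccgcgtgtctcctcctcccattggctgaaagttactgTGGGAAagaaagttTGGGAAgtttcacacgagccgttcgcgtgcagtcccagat
The core on either strand lies in this window of 3077 of 35116 RefSeq promoters, or 8.76%, and no other motif was searched. HES5 and HES4, which gained, carry it on the gene's strand with its first base 80 and 76 bases before the start. HES1, with no call, carries it at 84 and at 70 bases, and HES3, which was lower, carries it on the opposite strand at 114 bases. The targets HEYL, HEY2 and NRARP were searched too. HEYL, which rose, carries the core on the gene's strand at 99 bases, while NRARP, which rose, and HEY2, which did not pass (-0.44 ± 0.23, adjusted p = 0.198), hold none in this window. The match is a description of letters, and the genes that hold it differed in their course.

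**Figure D1:**
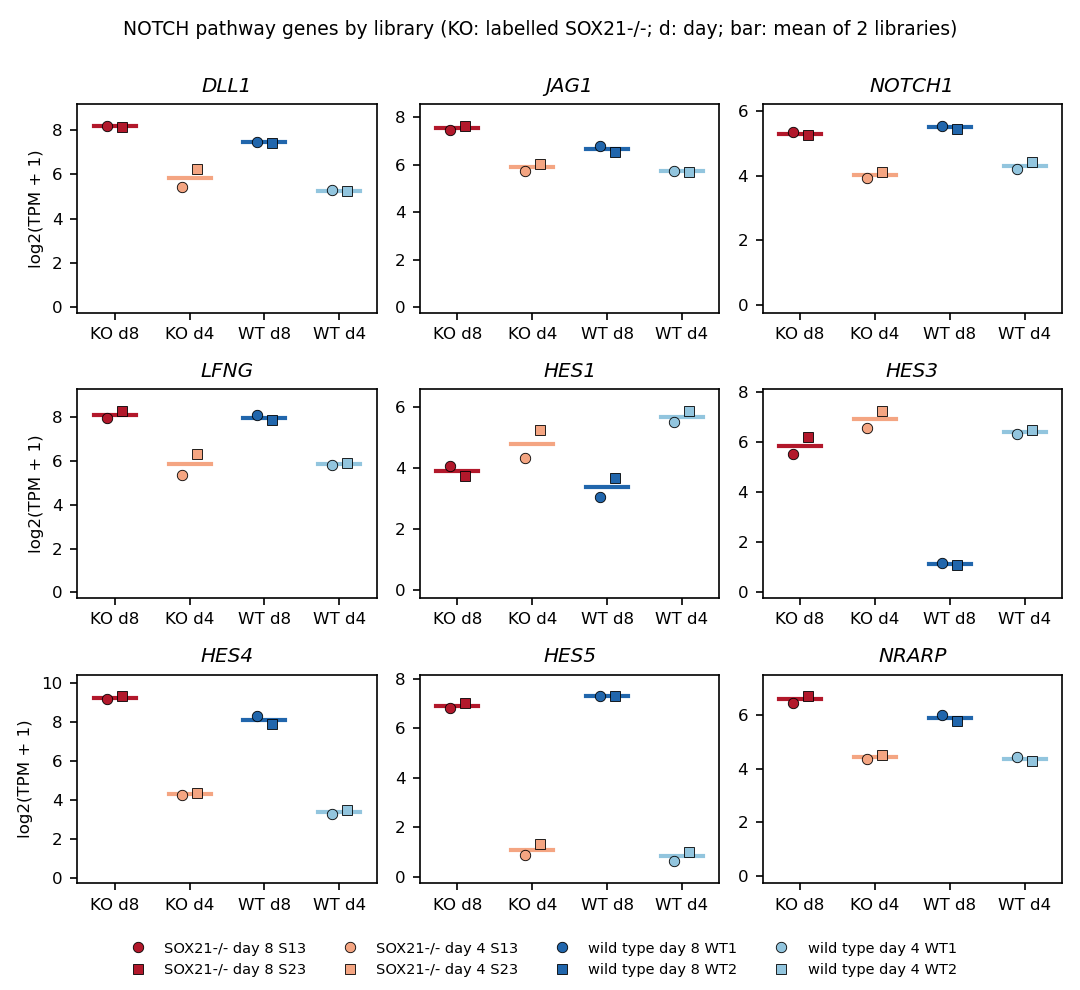
Expression of 9 NOTCH pathway genes in log2(TPM + 1), with 1 point per library and a bar at the mean of each group of 2. Groups run from SOX21-/- day 8 and SOX21-/- day 4 to wild type day 8 and wild type day 4. HES5 and HES4 are high at day 8 in both genotypes, and HES3 is at 44.4 and 73.6 TPM at day 8 in the libraries labelled SOX21-/-, against 1.22 and 1.09 TPM in wild type.

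Ligands, a receptor and modifiers rose with HES5 and HES4. Of 25 tested members of the NOTCH list, 13 rose and 2 fell, with a median log2 fold change of 0.69 beside 0.20 for all genes. The ligand DLL1 was at 289.9 and 285 TPM at day 8 and at 41.9 and 76.0 TPM at day 4 (2.33 ± 0.24, adjusted p = 0.000608). The ligand JAG1 was at 176 and 198 TPM at day 8 and at 52.8 and 64.7 TPM at day 4 (1.66 ± 0.18, adjusted p = 0.000653), and JAG2 rose by 1.91 ± 0.27 on the log2 scale. Each ligand was higher in both day 8 libraries than in either day 4 library, as was every gene called higher. The receptor NOTCH1 was at 40.0 and 36.9 TPM at day 8 and at 14.3 and 16.1 TPM at day 4 (1.28 ± 0.12, adjusted p = 0.000412). LFNG, which adds sugars to NOTCH and tunes its choice of ligand, was at 251 and 311 TPM at day 8 and at 40.3 and 79.7 TPM at day 4. The targets HEYL (2.24 ± 0.27) and NRARP, a feedback inhibitor of the pathway (2.14 ± 0.15), rose as well. In wild type 10 of these 25 genes rose and 2 fell, where 7.62% of all tested genes rose and 4.99% fell, and the difference between the steps passed for 1 of them, HES3, where 0.788% of all genes passed in that direction. Median-of-ratios scaling left 10 higher and 2 lower, and quantile normalization 11 and 3.

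Progenitor genes rose broadly. Of 28 tested early neural progenitor genes, 17 rose and 1, HES3, fell (median 0.95), and between 15 and 21 rose in the fits that left out a library of the step. FABP7, a fatty acid carrier of radial glia, was at 406 and 409 TPM at day 8 and at 98.5 and 26.5 TPM at day 4 (2.96 ± 0.47, adjusted p = 0.0033). MSI1, an RNA-binding protein of progenitors, was at 159.9 and 173 TPM at day 8 and at 46.6 and 57.4 TPM at day 4 (1.67 ± 0.15, adjusted p = 0.000366). The intermediate filaments nestin (NES, 0.70 ± 0.08) and vimentin (VIM, 0.87 ± 0.06) rose less than MSI1. SOX2, the pan-neural and stem cell factor, stayed between 290.4 and 436 TPM in the 4 libraries and did not pass (0.24 ± 0.14, adjusted p = 0.259). PAX6 was at 204 and 190.2 TPM at day 8 and at 93.3 and 148 TPM at day 4. SOX2, PAX6, NES and VIM, which neural progenitors express, were thus present in all 4 libraries. HES5, also a progenitor marker, was at only 0.838 and 1.51 TPM at day 4. PRDM16, a chromatin regulator of radial glia, was at 26.2 and 25.3 TPM at day 8 and at 1.004 and 0.373 TPM at day 4 (4.01 ± 0.23, adjusted p = 8.33e-05).

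Within the SOX family 8 of 14 tested members rose and 1 fell (median 0.90), while SOX21 itself did not pass. SOX9, which accompanies the change to radial glia, was at 27.5 and 26.5 TPM at day 8 and at 6.87 and 6.67 TPM at day 4 (1.85 ± 0.17, adjusted p = 0.000407). SOX11 was at 126 and 169 TPM at day 8 and at 64.8 and 76.6 TPM at day 4 (1.04 ± 0.17, adjusted p = 0.00372), and SOX3 rose by 1.05 ± 0.19. SOX14, the closest relative of SOX21, was at 3.40 and 5.06 TPM at day 8 and was listed at 0 in both day 4 libraries (adjusted p = 0.000366). In wild type SOX14 was listed at 0 in 3 of 4 libraries and at 0.0772 TPM in WT1 at day 4. SOX13 was at 130.2 and 130.2 TPM at day 8 and at 72.2 and 71.5 TPM at day 4, against 35.4 and 38.3 TPM at day 8 and 46.0 and 56.5 TPM at day 4 in wild type. SOX21-AS1, the antisense RNA beside SOX21, was named after its values were seen. It was at 165 and 108 TPM at day 8 and at 115 and 102 TPM at day 4, above all 4 wild-type libraries, which ran from 52.1 to 79.7 TPM. The sources used here do not give whether reads were counted by strand, and SOX21 and SOX21-AS1 may share reads.

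ID4, a helix-loop-helix protein that blocks the partners of proneural factors, was at 150.3 and 162 TPM at day 8 and at 6.22 and 5.16 TPM at day 4 (4.56 ± 0.16, adjusted p = 8.04e-06). ID4, CRIP1, IGFBP5, ANXA2, ACTC1, NPPB and NOS2 were among the 15 largest gains. CRIP1 rose by 4.83 ± 0.33, ACTC1, a muscle actin, by 4.01 ± 0.17, and NOS2, an inducible nitric oxide synthase, by 4.34 ± 0.18 on the log2 scale. NPPB, a natriuretic peptide, was at 23.5 and 11.7 TPM at day 8 and at 0.325 and 0 TPM at day 4.

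Part of the stem cell genes fell further. Of 21 tested pluripotency genes 8 fell and 0 rose (median -0.29), as in wild type, where 8 fell and 0 rose. POU5F1, the core stem cell factor, was at 0.283 and 1.41 TPM at day 8 and at 24.2 and 30.7 TPM at day 4 (-4.01 ± 0.31, adjusted p = 0.000196). The wild-type libraries held 0.895 and 0.508 TPM at day 8 and 20.5 and 32.4 TPM at day 4. ZSCAN10 fell by 2.49 ± 0.18 and PRDM14 by 2.01 ± 0.22. DNMT3B, a DNA methyltransferase, was at 52.6 and 58.7 TPM at day 8 and at 131 and 108 TPM at day 4 (-1.09 ± 0.11). NANOG was already at 0.0796 and 0.104 TPM at day 4 and stayed at 0.116 and 0.0796 TPM at day 8. LIN28A, an RNA-binding protein that blocks let-7, remained abundant at 608 and 701 TPM at day 8 and 885 and 952 TPM at day 4 (-0.49 ± 0.10, adjusted p = 0.00797).

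Most listed proneural genes were too low to test. In S13 and S23 the list summed to 22.34 and 6.555 TPM at day 8 and to 1.864 and 2.658 TPM at day 4. The wild-type sum was 1.27 and 1.263 TPM at day 8 and 1.335 and 1.41 TPM at day 4. Of 15 listed proneural factors 3 could be tested and 2 rose, and 1 rose without S13 at day 4, S23 at day 4 or S13 at day 8, against 3 without S23 at day 8. NEUROD4 was at 6.74 and 3.19 TPM at day 8 and was listed at 0 in both day 4 libraries (adjusted p = 0.000918), and its wild-type level at day 8 or day 4 did not exceed 0.220 TPM. Of 24 tested genes of young neurons 8 rose and 4 fell (median 0.37), with 5 higher and 4 lower without S23 at day 4 or without S13 at day 8, and 4 higher and 6 lower under quantile normalization. STMN2, a microtubule regulator of growing axons, was at 29.4 and 20.07 TPM at day 8 and at 6.12 and 8.30 TPM at day 4 (1.64 ± 0.24, adjusted p = 0.00222). L1CAM, an axonal adhesion molecule, was at 17.3 and 27.3 TPM at day 8 and at 1.72 and 4.04 TPM at day 4 (2.62 ± 0.30, adjusted p = 0.00091). The filament INA (-0.92 ± 0.15) and the growth cone protein DPYSL3 (-0.9998 ± 0.19) fell, and DCX was at 4.92 and 2.12 TPM at day 8 and at 3.18 and 3.38 TPM at day 4. Genes of young neurons thus moved in both directions.

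Transcripts that host miR-9, a microRNA of neural progenitors that targets HES1, were among the gains for 2 of its 3 loci. Both of its arms are shown, 5′ to 3′ from RefSeq on GRCh38.p14, with the seed, bases 2 to 8, in capitals.
hsa-miR-9-5p, chr1:156420392-156420414, minus strand: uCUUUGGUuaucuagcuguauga
hsa-miR-9-3p, chr1:156420354-156420375, minus strand: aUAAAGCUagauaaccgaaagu
The MIR9-1 hairpin lies inside C1orf61 on the same strand and outside its exons in GENCODE v29. C1orf61 was at 88.5 and 32.6 TPM at day 8 and at 0.257 and 1.05 TPM at day 4 (5.095 ± 0.46, adjusted p = 0.000372), and at 16.7 and 10.05 TPM at day 8 and 0.286 and 0.485 TPM at day 4 in wild type. MIR9-2 lies in an exon of LINC00461, which was named after its values were seen. LINC00461 was at 6.96 and 3.25 TPM at day 8 and at 0.265 and 0.901 TPM at day 4 (1.91 ± 0.33, adjusted p = 0.00465), while no wild-type library of day 8 or day 4 exceeded 0.303 TPM. Its wild-type step did not pass (-0.13, adjusted p = 0.882), nor did the difference between the steps (2.03 ± 0.46, adjusted p = 0.0859). MIR9-3 lies inside MIR9-3HG, which was also named after its values were seen. MIR9-3HG was at 0.230 and 0.440 TPM at day 8 and at 1.49 and 0.134 TPM at day 4 and did not pass (-0.34 ± 0.39, adjusted p = 0.581). The hairpins MIR9-1, MIR9-2 and MIR9-3 yield the same mature sequences in RefSeq, so the seeds shown hold for all 3 loci. Poly(A) RNA holds host transcripts, and mature miR-9 was not measured.

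Patterning genes moved both ways in the rostral and in the caudal forebrain list. Of 18 tested rostral forebrain and eye field genes 6 rose and 5 fell (median -0.18), with 3 higher and 4 lower without S23 at day 8. Of 22 tested genes of the caudal forebrain 9 rose and 4 fell (median 0.76), against 7 and 5 under median-of-ratios scaling. FEZF2, of the rostral list, was at 128 and 122 TPM at day 8 and at 11.6 and 28.97 TPM at day 4 (2.69 ± 0.36, adjusted p = 0.00169). HESX1, an anterior repressor, was at 4.09 and 2.27 TPM at day 8 and at 56.3 and 41.2 TPM at day 4 (-3.59 ± 0.22, adjusted p = 0.000114). SIX3, a regulator of the eye field that holds back WNT genes in mouse, was at 12.2 and 7.79 TPM at day 8 and at 31.5 and 26.5 TPM at day 4 (-1.47 ± 0.21, adjusted p = 0.00229). Rostral genes thus included strong changes each way.

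Among caudal forebrain genes the nuclear receptors NR2F1 and NR2F2, which mark caudal and ventral forebrain in mouse, rose in both lines. NR2F1 was at 152 and 152 TPM at day 8 and at 13.6 and 10.3 TPM at day 4 (3.57 ± 0.15, adjusted p = 1.83e-05). NR2F2 was at 85.9 and 102 TPM at day 8 and at 20.5 and 29.6 TPM at day 4 (1.88 ± 0.19, adjusted p = 0.000507), and at 29.6 and 24.8 TPM at day 8 and 42.7 and 36.5 TPM at day 4 in wild type. The day 8 libraries labelled SOX21-/- were above their day 4 libraries and the wild-type ones below theirs (-0.53, adjusted p = 0.109), and the steps differed by 2.41 ± 0.27 (adjusted p = 0.0102). BARHL1, a diencephalic homeobox gene, was at 11.9 and 4.36 TPM at day 8 and at 0.0285 and 0.761 TPM at day 4 (2.63 ± 0.41, adjusted p = 0.00316), and at no more than 0.207 TPM in wild type at day 8 or day 4. FOXB1, a gene of the diencephalon and hypothalamus, went the other way, at 4.62 and 8.45 TPM at day 8 and at 24.5 and 52.0 TPM at day 4 (-2.33 ± 0.36, adjusted p = 0.00303).

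Genes of other axial levels were often too low to test. DBX1, which marks a narrow band of ventral progenitors, was at 12.5 and 8.98 TPM at day 8 and at 111 and 173 TPM at day 4 (-3.59 ± 0.28, adjusted p = 0.000204). It was 1 of 2 tested members of the ventral list of 16, and the only one called. PAX2, a gene of the midbrain border and optic stalk, was at 1.14 and 0.372 TPM at day 8 and at 34.4 and 16.7 TPM at day 4 (-3.87 ± 0.37, adjusted p = 0.000424). It was the only call among 6 tested of 22 midbrain and hindbrain genes, of which 3 fell without S23 at day 4. The remaining 16 midbrain and hindbrain genes were too low to test. Of 14 tested genes of the dorsal midline 4 rose and 3 fell, against 4 and 1 without S23 at day 4, 3 and 2 without S13 at day 8, and 1 and 4 under quantile normalization.

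**Figure D2:**
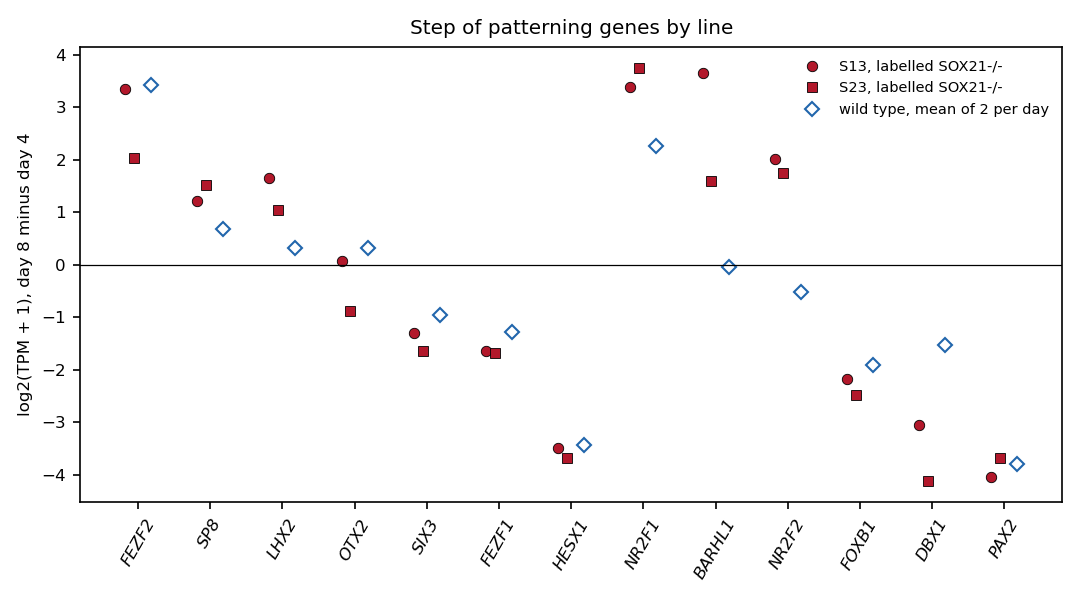
Step of 13 patterning genes as log2(TPM + 1) at day 8 minus day 4, with filled points for S13 and S23 and open points for the mean of WT1 and WT2 less that of day 4. HESX1 sits at -3.59 on average in the libraries labelled SOX21-/-, and NR2F2 at 1.88, against -0.53 in wild type.

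WNT ligands and their carrier rose. WNT8B, a ligand named in the study's title that marks the cortical hem in mouse, was at 322 and 303 TPM at day 8 and at 26.7 and 94.3 TPM at day 4 (2.61 ± 0.52, adjusted p = 0.00835). Without S13 at day 4 the log2 fold change was 1.72 (adjusted p = 0.0218), and adjusted p ranged from 0.00215 to 0.146 over the alternatives. In wild type WNT8B was at 1.60 and 0.317 TPM at day 8 and at 2.78 and 3.19 TPM at day 4, and the difference between the steps was 3.71 ± 0.73 (adjusted p = 0.0584). WNT7B was at 54.6 and 46.9 TPM at day 8 and at 0.489 and 0.531 TPM at day 4 (5.0954 ± 0.16, adjusted p = 5.61e-06). Its wild-type values were close to these, at 44.4 and 41.3 TPM at day 8 and 0.471 and 0.644 TPM at day 4 (4.82, adjusted p = 5.91e-06). WNT2B was at 6.20 and 8.77 TPM at day 8 and at 0.831 and 1.03 TPM at day 4 (2.12 ± 0.22, adjusted p = 0.000562). Of 11 tested ligands and secretion genes 5 rose and 0 fell (median 0.74), and 3 rose without S23 at day 8.

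WLS, the transmembrane escort of WNT proteins, was at 590.3 and 665 TPM at day 8 and at 199.6 and 227 TPM at day 4 (1.55 ± 0.32, adjusted p = 0.0100). In wild type it was at 27.8 and 15.1 TPM at day 8 and at 78.0 and 56.8 TPM at day 4 (-1.65, adjusted p = 0.0152). The gain of WLS did not pass without S13 at day 4 (adjusted p = 0.0568) or S23 at day 8 (0.0599), with adjusted p from 0.00173 to 0.0599 over the alternatives. The steps differed by 3.20 ± 0.46 (adjusted p = 0.0238; 0.00786 to 0.0844 over the alternatives). That difference was past the threshold without S23 at day 4 or WT1 at day 8 and missed it in the other 6 fits that left out a library.

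Frizzled receptors moved apart. FZD5, a receptor of the eye field, was at 13.7 and 8.24 TPM at day 8 and at 105 and 135 TPM at day 4 (-3.37 ± 0.22, adjusted p = 0.000129). In wild type FZD5 was at 174 and 200.2 TPM at day 8 and at 142 and 164 TPM at day 4, and the steps differed by -3.65 ± 0.31 (adjusted p = 0.00473). FZD8 was at 2.44 and 1.96 TPM at day 8 and at 16.2 and 10.8 TPM at day 4 (-2.16 ± 0.23, adjusted p = 0.000716), against 25.05 and 32.4 TPM at day 8 and 16.1 and 17.7 TPM at day 4 in wild type. The steps of FZD8 differed by -2.88 ± 0.33 (adjusted p = 0.0115), a call lost without WT1 at day 4 (adjusted p = 0.0544; 0.00431 to 0.0544 over the alternatives). FZD7 fell in both genotypes, by 0.77 ± 0.09 in the libraries labelled SOX21-/- and by 1.06 in wild type. FZD2 (0.94 ± 0.13) and FZD4 (1.06 ± 0.17) rose in the libraries labelled SOX21-/-. Over all 31 tested receptors and extracellular modulators 9 rose and 7 fell (median 0.0089), with 6 higher without S13 at day 4 or S13 at day 8, and 6 higher and 9 lower under median-of-ratios scaling. LGR4, an R-spondin receptor, was at 33.96 and 51.8 TPM at day 8 and at 145 and 173 TPM at day 4, whereas its relative LGR5 rose by 1.78 ± 0.28.

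Canonical WNT target genes did not move as a block. Of 17 tested, 7 rose and 2 fell (median 0.36). CCND1, a G1 cyclin, was at 166 and 129 TPM at day 8 and at 55.4 and 48.7 TPM at day 4 (1.48 ± 0.14, adjusted p = 0.000376). AXIN2, a feedback inhibitor that most WNT responses raise, was at 17.7 and 17.9 TPM at day 8 and at 23.8 and 35.3 TPM at day 4 and did not pass (-0.68 ± 0.34, adjusted p = 0.194). TNFRSF19, another target, was at 7.46 and 7.95 TPM at day 8 and at 21.3 and 35.0 TPM at day 4 (-1.70 ± 0.25, adjusted p = 0.00225). LEF1, the nuclear partner of beta-catenin, lay between 17.1 and 27.4 TPM in all 4 libraries.

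**Figure D3:**
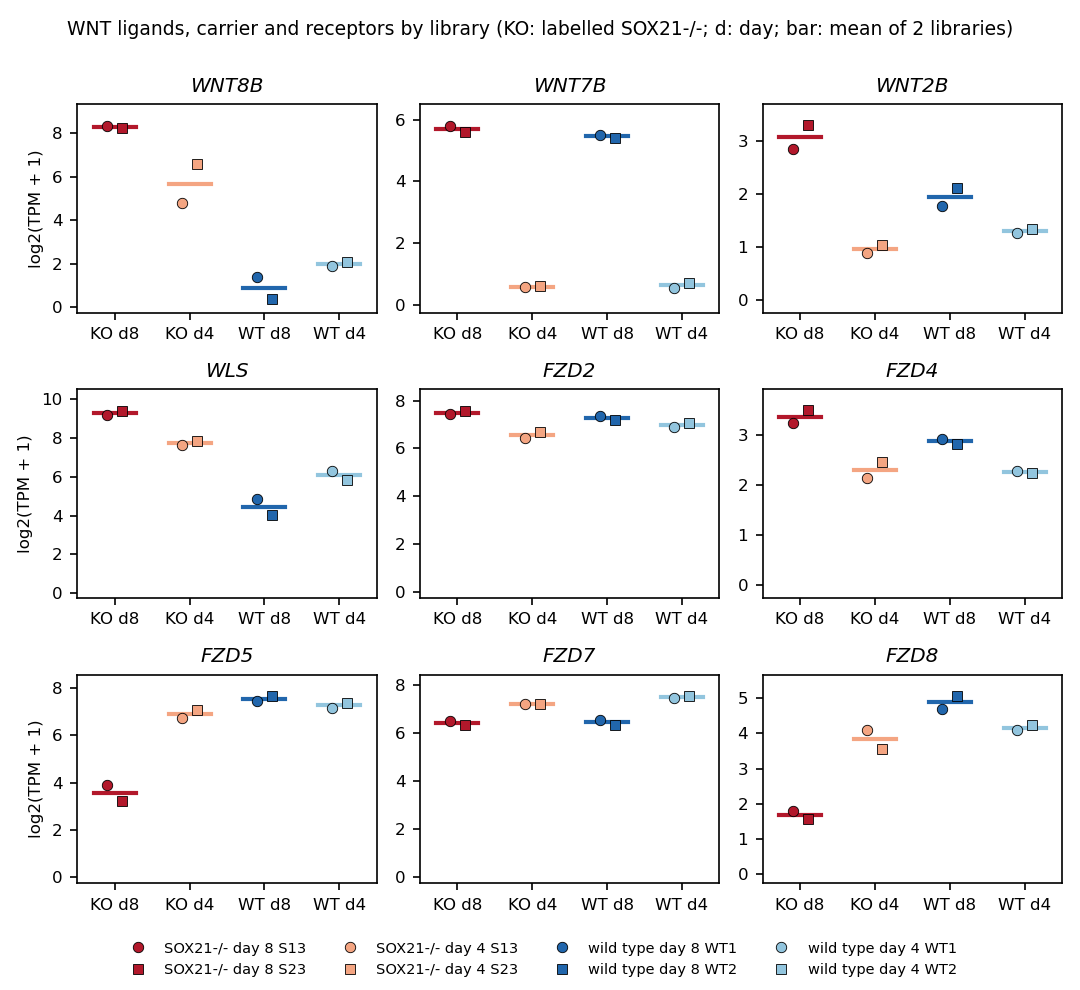
Expression of WNT8B, WNT7B, WNT2B, WLS and 5 frizzled receptors in log2(TPM + 1), with 1 point per library and a bar at the mean of each group of 2, SOX21-/- day 8 and day 4 left of wild type day 8 and day 4. WLS and FZD5 change in opposite directions in the libraries labelled SOX21-/-, and in wild type WLS is lower at day 8 than at day 4.

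Other signalling pathways differed in their counts. Of 23 tested FGF pathway genes 5 rose and 0 fell, a share of gains near the 19% of all tested genes, with 3 falling without S23 at day 4 and 2 rising without S23 at day 8. FGFR3 was at 32.6 and 28.5 TPM at day 8 and at 15.1 and 14.1 TPM at day 4 (1.01 ± 0.20, adjusted p = 0.00854), and the decoy receptor FGFRL1 rose by 2.36 ± 0.17. Of 23 BMP pathway genes 9 rose and 3 fell (median 0.61). Median-of-ratios scaling gave 4 higher and 5 lower and quantile normalization 2 and 5, settings in which more of all tested genes fell than rose. Between 4 and 11 of them rose in the fits that left out a library of the step, with 4 without S23 at day 4 or S13 at day 8, and 5 without S13 at day 4. ID2, a direct BMP target, was at 112 and 40.5 TPM at day 8 and at 409 and 375 TPM at day 4 (-2.52 ± 0.37, adjusted p = 0.00229), while its relative ID4 rose. Of 12 hedgehog pathway genes 3 rose and 0 fell, where 19% of all tested genes rose, and median-of-ratios scaling gave 3 and 2. GAS1, a co-receptor, was at 87.1 and 86.9 TPM at day 8 and at 24.8 and 44.7 TPM at day 4 (1.36 ± 0.25, adjusted p = 0.00607). SCUBE2, which helps release hedgehog ligands, rose by 2.00 ± 0.36. Of 14 retinoic acid genes 5 rose and 3 fell, against 2 and 4 under quantile normalization, 3 and 4 under median-of-ratios scaling, 3 and 3 without S13 at day 8 and 3 and 1 without S23 at day 8. The binding protein CRABP1 was at 506 and 420.3 TPM at day 8 and at 116 and 53.4 TPM at day 4 (2.54 ± 0.30, adjusted p = 0.000996). ALDH1A1, which makes retinoic acid, was at 3.12 and 1.53 TPM at day 8 and listed at 0 in both day 4 libraries. CYP26A1, which degrades it, was listed at 0 at day 8 and was at 2.21 and 1.25 TPM at day 4.

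DNA replication genes fell and mitosis genes rose. Of 33 DNA replication genes 19 fell and 0 rose (median -0.60), and 0 rose under every alternative run. PCNA, the sliding clamp of DNA polymerase, was at 206 and 167 TPM at day 8 and at 394 and 325 TPM at day 4 (-0.94 ± 0.12, adjusted p = 0.00149). The helicase subunit MCM3 was at 138 and 129.95 TPM at day 8 and at 247 and 229 TPM at day 4 (-0.82 ± 0.08, adjusted p = 0.000495), and the loading factor CDC6 fell by 1.08 ± 0.10. For each of these 3 genes both day 8 libraries were below both day 4 libraries, as for every gene called lower. Of 27 mitosis genes 14 rose and 0 fell (median 0.34), with 9 rising without S13 at day 4, 8 without S23 at day 4, 7 without S13 at day 8 and 5 under median-of-ratios scaling. CENPE, a kinetochore motor, was at 32.2 and 32.0 TPM at day 8 and at 9.87 and 8.75 TPM at day 4 (1.69 ± 0.15, adjusted p = 0.000376). TOP2A (0.73 ± 0.12) and CDK1 (0.72 ± 0.10) rose too. In wild type 9 of the replication genes fell and 7 of the mitosis genes rose, where 4.99% of all tested genes fell and 7.62% rose.

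Sterol synthesis genes rose in part, and ribosomal protein genes fell in part. Of 24 sterol synthesis genes 11 rose and 0 fell (median 0.66), from 7 without S13 at day 8 to 18 without S23 at day 4. MSMO1 was at 115 and 121 TPM at day 8 and at 31.2 and 59.98 TPM at day 4 (1.42 ± 0.26, adjusted p = 0.00571), and the regulator SREBF2 at 186 and 211 TPM at day 8 and 53.9 and 93.2 TPM at day 4 (1.47 ± 0.21, adjusted p = 0.00221). Of 27 genes of glycolysis and the hypoxia response 8 rose and 6 fell, with 3 rising without S23 at day 4, without S13 at day 8 or under median-of-ratios scaling, and 5 without S23 at day 8. The hexokinase HK2 was at 10.2 and 9.82 TPM at day 8 and at 27.7 and 38.6 TPM at day 4, and the growth factor VEGFA was at 38.5 and 52.4 TPM at day 8 and at 16.2 and 17.9 TPM at day 4. Of 77 cytosolic ribosomal protein genes 37 fell and 0 rose (median -0.23), between 10 without S13 at day 8 and 23 without S13 at day 4, with 15 without S23 at day 4 and 22 without S23 at day 8. Median-of-ratios scaling called 65 lower (median -0.49) and quantile normalization 1 higher and 9 lower. Ribosomal protein genes held 19.9 and 20.9% of all TPM at day 8 and 23.3 and 23.9% at day 4. Of 13 mitochondrially encoded genes 4 fell and 0 rose, 2 without S13 at day 4, S23 at day 4 or S13 at day 8. For these genes median-of-ratios scaling gave 9 lower and quantile normalization 2 higher and 3 lower. MT-ND1, a subunit of complex I, was at 3018 and 3395 TPM at day 8 and at 5047 and 4832 TPM at day 4.

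Most extracellular matrix genes rose. Of 34 tested genes 24 rose and 1 fell (median 0.98), and between 20 and 22 rose in the fits that left out a library of the step. COL2A1, a fibrillar collagen also made by neuroepithelium, was at 454 and 459 TPM at day 8 and at 68.0 and 86.2 TPM at day 4 (2.56 ± 0.13, adjusted p = 6.37e-05). COL11A1, its partner in fibrils, was at 149 and 116 TPM at day 8 and at 17.6 and 8.90 TPM at day 4 (3.29 ± 0.33, adjusted p = 0.000497). The basement membrane genes LAMA1 (0.89 ± 0.13), NID1 (1.19 ± 0.13), HSPG2 (1.04 ± 0.13) and COL4A6 (1.55 ± 0.14) rose with them. Fibronectin (FN1) was at 65.4 and 63.3 TPM at day 8 and at 26.4 and 22.5 TPM at day 4. TNC, a matrix glycoprotein of neural progenitors and other tissues, was the 1 that fell, with 9.06 and 12.3 TPM at day 8 and 63.4 and 76.6 TPM at day 4 (-2.61 ± 0.72, adjusted p = 0.0303). It missed the threshold when a single library of the step was left out: the adjusted p was 0.0939 without S13 at day 4, 0.112 without S23 at day 4, 0.125 without S13 at day 8 and 0.0925 without S23 at day 8. Over all alternatives it lay between 0.00452 and 0.125. VWF, an endothelial clotting factor outside that list, was at 0.596 and 0.247 TPM at day 8 and at 16.4 and 12.4 TPM at day 4 (-3.44 ± 0.21, adjusted p = 0.000114).

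Adhesion and guidance genes changed in both directions. Of 26 cadherins and adhesion genes 8 rose and 2 fell, with 4 and 2 without S13 at day 8, and 5 and 4 under median-of-ratios scaling. CDH11 was at 178 and 162 TPM at day 8 and at 57.2 and 38.4 TPM at day 4 (1.84 ± 0.25, adjusted p = 0.00179). CLDN6, a tight junction protein of stem cells and early epithelia, was at 43.6 and 40.7 TPM at day 8 and at 139 and 142 TPM at day 4 (-1.71 ± 0.10, adjusted p = 8.88e-05). Of 41 axon guidance genes 15 rose and 8 fell, and 9 and 10 under quantile normalization. The ephrin receptor EPHA7 was at 87.9 and 80.5 TPM at day 8 and at 29.5 and 34.3 TPM at day 4 (1.38 ± 0.12, adjusted p = 0.000332), and EPHA4 at 91.7 and 101 TPM at day 8 and 230.3 and 262 TPM at day 4 (-1.34 ± 0.19, adjusted p = 0.00187). The semaphorin receptor NRP2 was at 15.4 and 10.9 TPM at day 8 and at 84.8 and 78.8 TPM at day 4, and the semaphorin SEMA3E fell by 2.88 ± 0.22. EFNB2 was at 79.7 and 78.2 TPM at day 8 and at 54.5 and 60.6 TPM at day 4, against 32.5 and 28.3 TPM at day 8 and 73.9 and 79.0 TPM at day 4 in wild type. The steps of EFNB2 differed by 1.75 ± 0.18 (adjusted p = 0.00911).

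Imprinted genes, expressed from the allele of a given parent, rose in part. Of 22 tested 11 rose and 0 fell (median 0.58), and median-of-ratios scaling gave 9 and 2. PLAGL1, a zinc-finger regulator of other imprinted genes, was at 109 and 107 TPM at day 8 and at 18.5 and 17.1 TPM at day 4 (2.53 ± 0.22, adjusted p = 0.000322). CDKN1C, a cell cycle inhibitor, was at 35.4 and 28.1 TPM at day 8 and at 8.20 and 9.48 TPM at day 4 (1.73 ± 0.20, adjusted p = 0.00101). IGF2 rose by 1.75 ± 0.21, and H19 was at 2.05 and 2.56 TPM at day 8 and listed at 0 in both day 4 libraries. DIO3, a deiodinase that inactivates thyroid hormone, was at 0.889 and 0.284 TPM at day 8 and at 1.21 and 0.478 TPM at day 4, against 19.3 and 21.7 TPM at day 8 and 0.775 and 0.583 TPM at day 4 in wild type. The steps of DIO3 differed by -3.89 ± 0.37 (adjusted p = 0.00638). DLK1, its neighbour in the same imprinted cluster, was at 339 and 114 TPM at day 8 and at 261 and 319 TPM at day 4, against 3194 and 2908 TPM at day 8 and 529 and 608 TPM at day 4 in wild type (difference -2.97 ± 0.58, adjusted p = 0.0559).

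**Figure D4:**
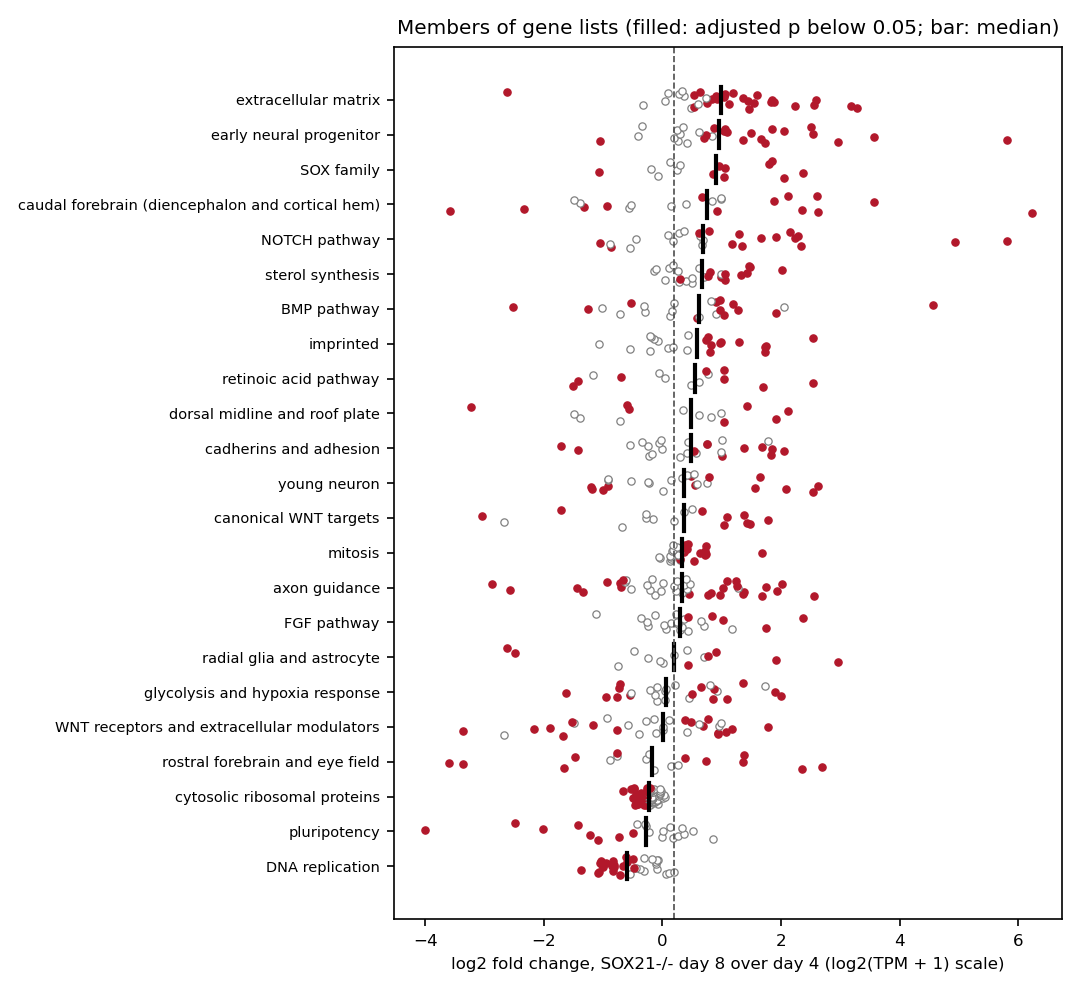
Log2 fold change of each tested member of the 23 gene lists with at least 14 tested members, SOX21-/- day 8 over SOX21-/- day 4, with filled points for genes past the adjusted p of 0.05, open points for the others, a bar at the list's median and a dashed line at the median of all tested genes, 0.20. The 33 DNA replication genes lie at or below the line and most extracellular matrix and progenitor genes above it.

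Markers of other cell types were measured beside these gains. Of 12 tested neural crest genes 3 rose and 1 fell, and their summed level was 213.8 and 286.4 TPM at day 8 and 82.78 and 68.75 TPM at day 4. In wild type the sum was 249.7 and 242.1 TPM at day 8 and 100.7 and 119.1 TPM at day 4, and the defining crest gene SOX10 did not exceed 0.747 TPM in the 4 libraries labelled SOX21-/-. Of 11 mesoderm and endothelium genes 5 rose and 1 fell, with a sum of 660.2 and 597.8 TPM at day 8 and 307.8 and 150.4 TPM at day 4. The markers T, MEOX1 and CDH5 of that list were too low to test. They did not exceed 0.713 TPM in the 4 libraries labelled SOX21-/-. The smooth muscle actin ACTA2 was at 118 and 100.3 TPM at day 8 and at 29.9 and 24.2 TPM at day 4, and the endothelial receptor KDR at 1.29 and 0.603 TPM at day 8 and 19.4 and 6.56 TPM at day 4. The mesoderm sum in wild type was 537.3 and 488.3 TPM at day 8 and 162.8 and 191.0 TPM at day 4. Of 11 genes of non-neural ectoderm and placode 3 rose and 0 fell, led by KRT8 at 160.2 and 129.5 TPM at day 8 and 80.2 and 57.9 TPM at day 4. The ectoderm markers KRT5, TP63 and GATA3 were too low to test and did not exceed 0.6385 TPM in the 4 libraries labelled SOX21-/-. Of 2 endoderm genes 1 rose, CXCR4, which progenitors also express, and SOX17 was listed at 0 in all 8 libraries of day 8 and day 4. Of 15 radial glia and astrocyte genes 5 rose and 2 fell, and PTN, a growth factor of radial glia, was at 108 and 76.3 TPM at day 8 and at 766 and 341 TPM at day 4. Of 6 choroid plexus and retinal pigment genes 1 rose, and 0 in any fit that left out a library of the step. For the crest list 1 rose without S13 at day 4, and 2 without any other library of the step. For mesoderm 3 rose without S23 at day 4, S13 at day 8 or S23 at day 8, and for ectoderm 1 rose without S13 at day 8 and 2 without S23 at day 4. The part of other cell types in the gains of matrix, actin and collagen genes was not tested.

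Set beside the wild-type step, most calls could not be told apart by genotype. The wild-type step called 3058 genes (12.6%), 1848 higher and 1210 lower. Both steps called 1318 genes higher and 666 lower, 31.3% of the SOX21-/- calls and 64.9% of the wild-type calls, and 50 genes in opposite directions. A further 4302 genes passed in the libraries labelled SOX21-/- and not in wild type, but for 4168 of them the difference between the steps did not pass. The difference itself passed for 270 genes (1.11%), 191 of them with the more positive step in the libraries labelled SOX21-/- and 79 with the less positive step (0.788% and 0.326% of the genes tested). Among these 191 genes, 108 rose in the libraries labelled SOX21-/- with no call in wild type, 31 rose there and fell in wild type, and 29 fell in wild type with no call in the libraries labelled SOX21-/-.

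The genes with a lower step than in wild type included PKDCC, FZD5 and MGST1. PKDCC, a secreted kinase, was at 8.64 and 5.08 TPM at day 8 and at 307 and 389 TPM at day 4 (-5.50 ± 0.22, adjusted p = 1.36e-05). In wild type it was at 186 and 226 TPM at day 8 and at 286 and 298 TPM at day 4, and the difference between the steps was -4.99 ± 0.31 (adjusted p = 0.00117). MGST1, a microsomal glutathione transferase, was at 26.2 and 21.2 TPM at day 8 and at 296 and 276 TPM at day 4 (-3.55 ± 0.14, adjusted p = 1.17e-05), against 311 and 413 TPM at day 8 and 371 and 379 TPM at day 4 in wild type. The genotypes did not overlap on either day for these genes, but they lay nearer each other at day 4. At day 4 the libraries labelled SOX21-/- were above wild type for PKDCC and below it for MGST1. At day 8 they were far below wild type for both genes. LINC01551, a long intergenic RNA, was at 1.32 and 1.35 TPM at day 8 and at 0.586 and 0.588 TPM at day 4, against 40.5 and 56.6 TPM at day 8 and 0.774 and 0.228 TPM at day 4 in wild type. Its steps differed by -4.49 ± 0.36 (adjusted p = 0.00367). ADCYAP1R1, GSC, LINC00354 and RMRP were also among the 10, and RMRP is uncertain because the table lists it under 2 identifiers.

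The genes with a higher step than in wild type were led by HES3. In wild type it was at 1.22 and 1.09 TPM at day 8 and at 78.8 and 88.0 TPM at day 4, and the difference between the steps was 4.24 ± 0.40 (adjusted p = 0.00638). FGFR2 was at 114 and 153 TPM at day 8 and at 69.9 and 101 TPM at day 4, against 13.3 and 6.11 TPM at day 8 and 69.8 and 73.0 TPM at day 4 in wild type (difference 3.49 ± 0.44, adjusted p = 0.0169). That call was lost without S13 at day 4 (adjusted p = 0.0525), without S23 at day 8 (0.0606) and without either wild-type library of day 4 (0.0655 and 0.0680), and over all alternatives the adjusted p reached 0.0975. At day 8 HES3 and FGFR2 were thus above both wild-type libraries in both libraries labelled SOX21-/-. NR5A1, a nuclear receptor of steroid-producing tissues, was at 5.89 and 7.89 TPM at day 8 and at 0.511 and 0.466 TPM at day 4, and no wild-type library of day 8 or day 4 exceeded 0.892 TPM. LINC01210 was at 6.13 and 5.41 TPM at day 8 and was listed at 0 in the other 6 libraries of day 8 and day 4, and at day 0. It entered the tests only through the 2 libraries where it was high, so its call is no independent support. Of the 20 genes with the largest differences, HES3, LINC01210, NR5A1, PKDCC, LINC01551, DIO3, FZD5 and MGST1 passed in every fit that left out a library. Under other settings LINC01210 lost its call with a filter at 5 TPM and with a block for the line label. NR5A1 lost its call with that block, and LINC01551 with a pseudocount of 0.1.

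**Figure D5:**
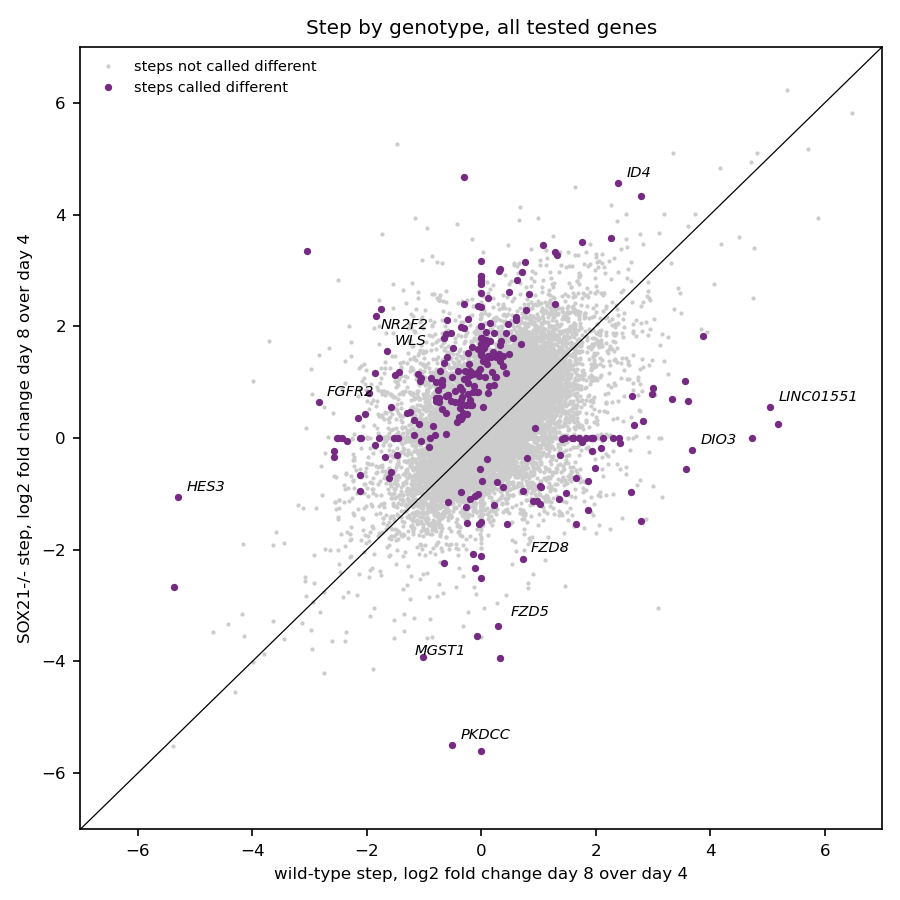
Step in the libraries labelled SOX21-/- (vertical axis) against the step in wild type (horizontal axis) for 24248 tested genes, both in log2 fold change at day 8 over day 4. Dark points are the 270 genes whose steps differed past the adjusted p of 0.05, and the named genes lie off the diagonal, with PKDCC, MGST1 and FZD5 below it and HES3 and WLS above it.

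Long intergenic RNAs made up 8 of the 30 genes with the largest steps. The naming rule admitted only this type, with 1977 genes tested, and protein-coding genes, with 14450 tested. Whether 8 exceeds their share was not tested. RP3-395M20.12 was at 86.8 and 116 TPM at day 8 and at 1.84 and 1.79 TPM at day 4 (5.17 ± 0.17, adjusted p = 5.61e-06). Its annotated span, 2530064 to 2547460 on chromosome 1, overlaps the start (5′ end) of HES5 on the other strand, so the 2 genes may share reads. RP11-82L7.4 was at 1.82 and 0.363 TPM at day 8 and at 28.1 and 44.1 TPM at day 4 (-4.21 ± 0.38, adjusted p = 0.000367). RP11-531H8.1 and CTD-2306M5.1 fell by 3.37 ± 0.60 and 3.45 ± 0.59, and AC091493.2 was listed at 0 in both day 8 libraries and was at 8.03 and 19.6 TPM at day 4. RP11-498P14.4 was at 18.04 and 15.2 TPM at day 8 and listed at 0 at day 4, and did not pass without S13 at day 8 (adjusted p = 0.0515; 0.00456 to 0.0515 over the alternatives). GS1-166A23.1 was listed at 0 at day 8 and was at 9.84 and 13.2 TPM at day 4, and RP11-138I1.3 was at 0 and 1.57 TPM at day 8 and at 17.9 and 15.8 TPM at day 4. Neither passed without any single library of the step (adjusted p from 0.11 to 0.132 for GS1-166A23.1 and from 0.058 to 0.15 for RP11-138I1.3).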

How the data were processed

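Poly(A) RNA of the 12 libraries was sequenced after TRIzol extraction, per the labels' protocols. The deposited values are TPM for each gene. Per the submitters' processing notes, the authors' tools were CASAVA 1.7 and Salmon 0.8.2 and the build was hg38. Neither the gene annotation nor any use of read strand is stated in the sources used here. TPM keeps no depth, so no counting interval can be given. The 4 libraries labelled SOX21-/- at day 8 and day 4 (lines S13 and S23) were compared in a limma 3.58.1 model (R 4.3.3) with 6 group means over all 12 libraries, on log2(TPM + 1). Genes with at least 1 TPM in at least 2 libraries were tested (24248), with 6 residual and 2.29 prior degrees of freedom, a variance trend, two-sided tests and Benjamini-Hochberg adjustment at 0.05. Every adjusted p is from limma over all tested genes, and ± gives its standard error. A wild-type step and the difference between the steps (SOX21-/- minus wild type) came from the same model, which was checked on simulated data.

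An exact 0 can be a failed estimate, so such a gene is called listed at 0. SOX21 and WNT8B were always named, with the 15 largest called steps each way and the 10 largest called differences each way among nuclear protein-coding and long intergenic genes with a mean of at least 5 TPM in the higher group and days that did not overlap. Members of 34 gene lists could be named too. Some genes that these rules admit are not reported here. The members and lists were chosen with earlier results of these data known. Coordinates are from GENCODE 29 on GRCh38, which matched 57881 of 58219 identifiers without their version and 55050 with it. Sequences are from RefSeq, GRCh38.p14. Other settings tried were a pseudocount of 0.1, a filter at 5 TPM, no filter, scaling by median-of-ratios factors, quantile normalization, no variance trend, robust moderation, days 4 and 8 only, the 4 libraries alone, a block for the line label, a 2-fold threshold, each library of day 8 and day 4 left out in turn, and, chosen after seeing the data, nuclear protein-coding genes only.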

Additional observations from a re-analysis of the deposited data

Results flagged for a closer look

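Each gene below had a step in the libraries labelled SOX21-/- that differed from the step in wild type, tested by limma's interaction contrast over all genes (adjusted p of 0.05). Values are the SOX21-/- step minus the wild-type step in log2, ± SE, and with 2 libraries a group no test for a single outlying library was made. The step was more positive for HES3 (4.24 ± 0.40), FGFR2 (3.49 ± 0.44), WLS (3.20 ± 0.46), the long intergenic RNA MIAT (3.03 ± 0.48), the factor DMRT3 (2.71 ± 0.38), NR5A1 (2.70 ± 0.29), LMNTD2 (2.69 ± 0.40) and MTUS1 (2.63 ± 0.39). It was also more positive for NR2F2 (2.41 ± 0.27), ID4 (2.16 ± 0.23), EFNB2 (1.75 ± 0.18), NOS2 (1.55 ± 0.25), EPHA7 (1.34 ± 0.17), MSI1 (1.33 ± 0.21), NR2F1 (1.31 ± 0.22) and SOX13 (1.31 ± 0.15). RP11-159D12.11 (2.84), LINC01210 (2.76), SOX14 (2.42) and NEUROD4 (2.38) were flagged as well, but they were listed at 0 in both SOX21-/- libraries of day 4, so these fitted values depend on the pseudocount and are no bound. RP11-159D12.11 and LINC01210 were listed at 0 in every library but the SOX21-/- ones of day 8. They passed the filter only through those libraries, so their calls are no independent support.

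The step was less positive for PKDCC (-4.99 ± 0.31), LINC01551 (-4.49 ± 0.36), DIO3 (-3.89 ± 0.37), FZD5 (-3.65 ± 0.31), the receptor ADCYAP1R1 (-3.58 ± 0.49), MGST1 (-3.48 ± 0.19), the organizer gene GSC (-3.16 ± 0.42) and FZD8 (-2.88 ± 0.33). LINC00354 (-2.95) was listed at 0 in both wild-type libraries of day 4, so its fitted value is no bound either. RMRP (-4.73 ± 0.70) stands under 2 identifiers in the table and is uncertain. NR2F2, ID4, EFNB2 and SOX13 also passed in every fit that left out a library, beside the 8 genes named in the report, while the other genes listed here lost their call in at least 1 such fit. Under other settings ID4, EFNB2 and SOX13 lost their call with the block for the line label, and NR2F2 with days 4 and 8 only.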

How the results depend on the processing

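The step called 6336 genes, 4603 higher and 1733 lower, the wild-type step 3058 and the difference between the steps 270, 191 of them more positive and 79 less. Scaling changed the split of the step to 2390 higher against 2922 lower calls under median-of-ratios scaling, and to 2355 against 2796 under quantile normalization. By construction both moved the median of all genes to about 0. Under median-of-ratios scaling the wild-type step called 1177 higher, and the difference 115 genes, 59 more positive and 56 less. Under quantile normalization the difference called 114 more positive and 100 less. A pseudocount of 0.1 gave 154 differences (108 and 46), robust moderation 51 less positive, and days 4 and 8 alone 135 (90 and 45). With no filter the difference called 341 genes, 227 and 114. The 4 libraries labelled SOX21-/- fitted alone gave 648 calls, 483 higher and 165 lower, at 2 residual degrees of freedom. Of 121 called step genes followed over the settings, 84 lost their call in that fit (adjusted p from 0.0516 to 0.2173). A 2-fold threshold left 2877 calls of the step (2386 and 491) and 1442 of the wild-type step (1032 and 410). Leaving out a library of day 8 or day 4, the step called 3776 to 5960 genes, 2758 to 4361 higher and 980 to 1601 lower. The wild-type step then called 1097 to 3183, 680 to 1916 higher and 393 to 1269 lower, and the difference 66 to 245, 49 to 178 more positive and 17 to 77 less. The difference fell most without WT1 at day 4, to 66. The SOX21 value ran from -1.11 without S13 at day 8 to 0.73 without S23 at day 8 and passed in both (adjusted p = 0.00706 and 0.0292), in opposite directions. Nuclear protein-coding genes alone, chosen after seeing the data, kept every count within 1.5 times.

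The difference between S13 and S23 at day 8 followed that at day 4 only weakly (r = 0.0712 across 24248 genes). A correlation over all genes cannot show whether libraries of the same line label share a clone or culture. With the replicate block for that label the step called 5536 genes, 3958 higher and 1578 lower, and the difference 17, 8 more positive and 9 less. Of 31 called differences followed over the settings, 22 lost their call with that block (limma adjusted p from 0.0517 to 0.1134). The cause of these shifts was not tested, except that fewer libraries leave fewer degrees of freedom. Precision is limited by 2 libraries a group and by an unknown depth.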
